A study of Mus musculus with 3 samples.

Results

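The 10 genes described here act on the stability of cytokine mRNAs with AU-rich elements or stem-loops: Zfp36, Zfp36l1, Zfp36l2, Zc3h12a, Zc3h12c, Rc3h1, Elavl1, Khsrp, Tia1 and Cnot1. They were chosen by name out of 55536 annotated genes, of which 22028 are protein-coding, and each symbol matched 1 gene identifier. Their levels come from RNA sequencing of cytosolic RNA, depleted of ribosomal RNA, of C57BL/6J macrophages cultured from mouse bone marrow. All cells were exposed to 100 ng/ml Lipid A, the Tlr4-activating moiety of lipopolysaccharide, for 12 hours, rested after its removal for another 12 hours, and restimulated with 100 ng/ml for 40 minutes. These make 1 group of 3 biological replicates, numbered 1, 2 and 3; whether the cultures came from different animals is not given, so the spread between them may be in part technical. Untreated cells were not analysed here, and every value below is a level or a ratio between genes, not a response to the stimulus.

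Many inflammatory mRNAs carry AU-rich elements in their 3′ untranslated region (3′ UTR). The zinc-finger proteins of the Zfp36 family bind these elements and bring in CCR4-NOT, the complex that shortens the poly(A) tail and is built on the scaffold Cnot1. Other proteins, such as Elavl1, bind similar sequences and hold the mRNA stable, while the Zc3h12 nucleases and the Rc3h proteins act on stem-loops. In macrophages this machinery limits how long mRNAs such as that of Tnf persist after a stimulus.

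Library depth was 38197192, 46327891 and 38685666 expected counts in replicates 1, 2 and 3. The 7 macrophage markers examined had between 33.3 and 3552 TPM (length-normalised share of all transcripts) in every library, whereas none of 16 markers of neutrophils, T cells, B cells, dendritic cells and fibroblasts exceeded 0.23 TPM. Nuclear protein-coding genes held 33.3%, 28.1% and 27.7% of TPM in replicates 1, 2 and 3, so TPM was also divided by this share ("rescaled TPM", a total that leaves out abundant non-coding RNA) where libraries are compared. Values called read-based come from a transcript table that was made from the reads without an alignment file; the others come from the alignments. Malat1, an RNA known to stay in the nucleus, measured 1445 TPM in replicate 1, 485 TPM in replicate 2 and 1726 TPM in replicate 3. For Neat1, likewise nuclear, the libraries gave 87.7, 16.1 and 88.3 TPM. Replicate 2 was thus the lowest for both nuclear RNAs.

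All 10 genes were detected, that is at 1 TPM or more in all 3 libraries, against 41.4% of annotated protein-coding genes. Their median level was 4.29 on the log2(TPM + 1) scale, against 3.26 over the 9106 detected nuclear protein-coding genes and 0.24 over all protein-coding genes. Mean TPM ran between 4.16 for Tia1 and 399 for Zfp36, with the Zfp36 family at the top.

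**Figure D1:**
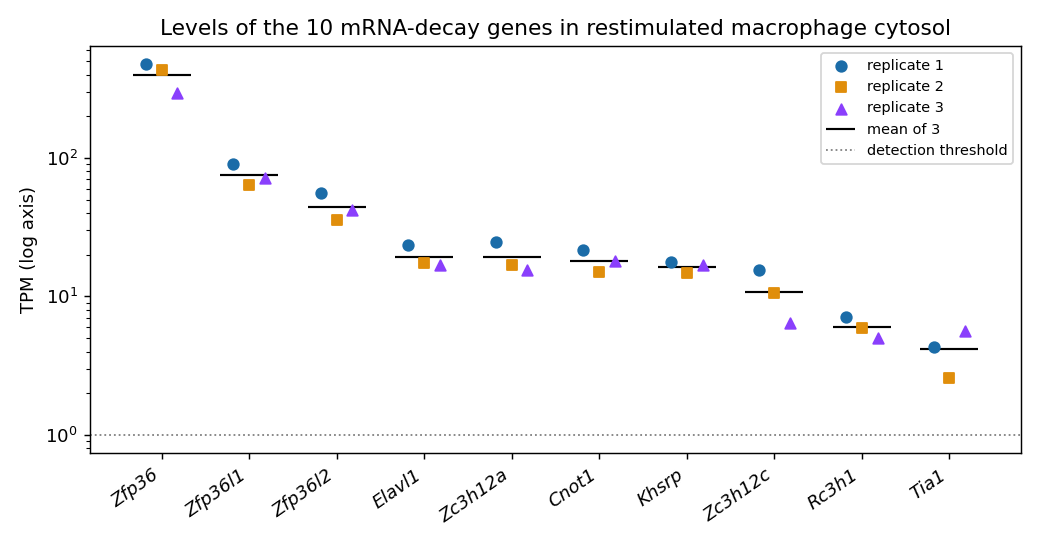
TPM on a log axis for each gene, ordered by mean; points are the 3 libraries, the horizontal bar is their mean and the dotted line is the detection threshold of 1 TPM. Zfp36 stands above the other 9 genes in every library, and Elavl1, Zc3h12a, Cnot1 and Khsrp share a level between 14.8 and 24.7 TPM.

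Among the proteins that bind AU-rich elements and promote decay, Zfp36 (tristetraprolin; mm10 chromosome 7, 28376784 to 28380253, minus strand) was the most abundant. It had 473, 429 and 295 TPM in replicates 1, 2 and 3, above 99.2% of detected nuclear protein-coding genes by its mean of 399 ± 92.5 TPM (SD, n = 3). Replicate 3 was the lowest. These levels rest on 62690, 84320 and 47337 expected counts. Zfp36l1 (chromosome 12, 80107754 to 80113013, minus strand), a paralog with the same kind of zinc fingers, had 91.0, 63.8 and 71.7 TPM. Zfp36l2 (chromosome 17, 84183931 to 84187947, minus strand), the remaining paralog measured, had 55.7, 35.8 and 41.8 TPM. Both paralogs were highest in replicate 1 and lowest in replicate 2, and neither overlapped with the range of Zfp36.

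Of the summed TPM of these 3 paralogs, Zfp36 held 76.3%, 81.2% and 72.2% in replicates 1, 2 and 3, a mean of 76.6% ± 4.46 (SD, n = 3). Zfp36l1 held 14.8% ± 2.74 and Zfp36l2 8.66% ± 1.75. On the log2(TPM + 1) scale Zfp36 exceeded Zfp36l1 by 2.37 ± 0.35 and Zfp36l2 by 3.13 ± 0.38, and Zfp36l1 exceeded Zfp36l2 by 0.76 ± 0.06 (mean ± SD over 3 libraries). All 3 ratios were positive in 3 of 3 libraries and were called at an adjusted p of 8.44e-07 or less by limma with Benjamini-Hochberg adjustment over 11473 genes. For scale, 4.63% of those genes were called above Zfp36l1 and 7.70% above Zfp36l2 by the same rule.

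Among the nucleases, Zc3h12a (Regnase-1; chromosome 4, 125118423 to 125127840, minus strand), which cuts stem-loop-bearing cytokine mRNAs, had 24.7, 17.0 and 15.6 TPM in replicates 1, 2 and 3. Its relative Zc3h12c (chromosome 9, 52111344 to 52168572, minus strand) had 15.5, 10.6 and 6.47 TPM. Both were highest in replicate 1 and lowest in replicate 3, and their ranges did not overlap, with the highest value of Zc3h12c just below the lowest of Zc3h12a. Zc3h12a exceeded Zc3h12c by 0.81 ± 0.30 on the log2 scale in 3 of 3 libraries (limma, adjusted p = 0.0369), where 22.2% of genes were called above Zc3h12c. The call was lost when replicate 1 was left out (ratio 0.89; adjusted p = 0.191 by limma) and when replicate 2 was left out (ratio 0.90; adjusted p = 0.423 by limma).

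Rc3h1 (Roquin-1; chromosome 1, 160906418 to 160974978, plus strand), which binds stem-loops in the 3′ UTR of mRNAs such as Tnf and brings in deadenylases, had 7.14, 5.88 and 5.01 TPM in replicates 1, 2 and 3. It was slightly below its paralog Rc3h2, which had 8.98, 6.74 and 6.62 TPM. The log2 ratio of Rc3h1 to Rc3h2 was -0.27 ± 0.09 and negative in 3 of 3 libraries (limma, adjusted p = 0.0246), where 51.7% of genes were called below Rc3h2. This call was lost in the read-based table (-0.14; limma, adjusted p = 0.246) and when any library was left out (limma, adjusted p between 0.0538 and 0.109). Zc3h12a exceeded Rc3h1 by 1.50 ± 0.14 and Zc3h12c exceeded Rc3h1 by 0.70 ± 0.36, each in 3 of 3 libraries (limma, adjusted p of 3.68e-08 or less), where 43.5% of genes were called above Rc3h1. The ratio of Zc3h12c to Rc3h1 was 1.02, 0.75 and 0.31 in replicates 1, 2 and 3, so its size depended on the library. Its own standard error of 0.21 was above the 0.12 that limma used, so the small p-value overstates the evidence.

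Of the other RNA-binding proteins, Elavl1 (HuR; chromosome 8, 4285382 to 4325413, minus strand), which stabilises mRNAs with AU-rich elements, had 23.4, 17.4 and 16.8 TPM in replicates 1, 2 and 3. Khsrp (chromosome 17, 57021051 to 57031522, minus strand), which promotes decay of such mRNAs, had 17.8, 14.8 and 16.7 TPM. By deposited TPM it had the lowest coefficient of variation of the 10 genes at 9.35%. By read-based rescaled TPM Khsrp had 6.89% and Elavl1 6.53%, so this rank depended on the scale. The 2 ranges overlapped. The log2 ratio of Khsrp to Elavl1 was -0.20 ± 0.19 and missed the threshold (limma, adjusted p = 0.0958), but the read-based table called it (-0.24; adjusted p = 0.0283 by limma), as did the fit that left out replicate 3 (-0.30; adjusted p = 0.0423 by limma). Tia1 (chromosome 6, 86404219 to 86433405, plus strand), which binds U-rich sequence and represses translation, was the lowest of the 10 genes with 4.29, 2.59 and 5.59 TPM. Its log2 ratio to Elavl1 was -2.00 ± 0.50, negative in 3 of 3 libraries and called by limma, where 75.3% of genes were called below Elavl1.

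Cnot1 (chromosome 8, 95719451 to 95807464, minus strand), the scaffold of CCR4-NOT, had 21.5, 14.9 and 18.0 TPM in replicates 1, 2 and 3. The other 9 genes were set against it, since the Zfp36 family proteins among them bring in that complex. Zfp36, Zfp36l1 and Zfp36l2 were called above Cnot1 (3 of 9, where 18.8% of all genes were), with log2 ratios of 4.37 ± 0.40, 2.00 ± 0.05 and 1.24 ± 0.09. Zc3h12c, Rc3h1 and Tia1 were called below it (3 of 9, where 73.6% of all genes were), with log2 ratios of -0.75 ± 0.52, -1.45 ± 0.23 and -1.92 ± 0.34. Each of these 6 ratios had the same sign in 3 of 3 libraries. Zc3h12a, Elavl1 and Khsrp missed the threshold, with log2 ratios of 0.06 ± 0.22, 0.07 ± 0.16 and -0.12 ± 0.12 (limma, adjusted p = 0.661, 0.569 and 0.332); the first 2 changed sign between libraries.

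**Figure D2:**
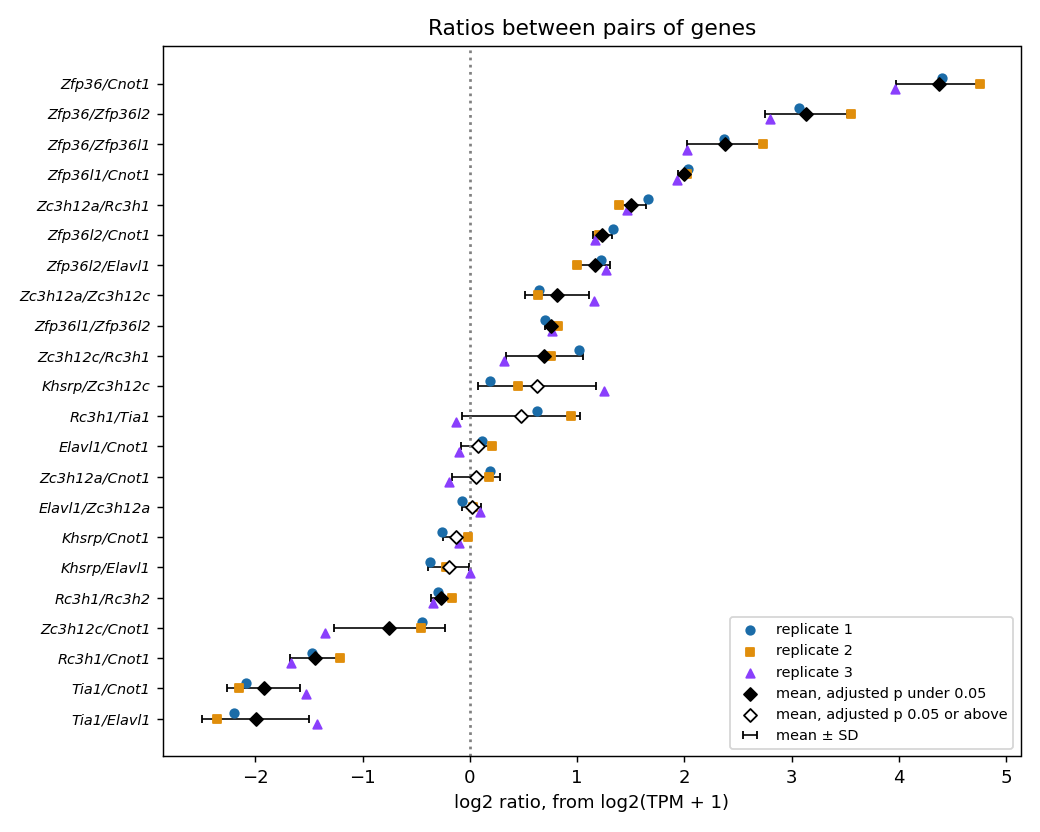
Log2 ratio, numerator over denominator, of each of the 22 gene pairs; coloured points are the libraries, the black bar is the mean ± SD of 3 libraries, and filled diamonds mark an adjusted p under 0.05 by limma. The Zfp36 ratios are the largest and the 7 pairs with open diamonds lie between -0.20 and 0.63.

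Of the 22 pairs 15 were called. For scale, 18.8% of all genes were called above Cnot1 and 73.6% below it, so a call in either direction was common. In the order of mean levels, Zfp36, Zfp36l1, Zfp36l2 and the next gene, Elavl1, each stood apart from its neighbour. That order came from these same libraries, so the direction of a neighbour ratio follows largely from it. Zfp36l2 exceeded Elavl1 by 1.16 ± 0.14 and was called by limma, where 18.0% of genes were called above Elavl1. Below that step, Elavl1, Zc3h12a, Cnot1 and Khsrp did not differ beyond the threshold, each from the next. The log2 ratio of Khsrp to Zc3h12c was 0.63 ± 0.55 (limma, adjusted p = 0.113), with 0.19, 0.45 and 1.25 in replicates 1, 2 and 3. Rc3h1 and Tia1 at the low end differed by 0.48 ± 0.55 on the log2 scale (adjusted p = 0.166 by limma). Leaving out replicate 3 gave 0.78 (adjusted p = 0.00517 by limma). Every gene of a fit shares the 3 values of its denominator, so very small p-values overstate the evidence of 3 libraries. In 9 pairs the pair's own standard error was above the one limma used. Among them were those of Zfp36, those of Tia1 to Elavl1 and Cnot1, and those of Zc3h12c to Rc3h1 and Cnot1. For Zc3h12c to Cnot1 it was 0.30 against 0.13. The calls of Zc3h12c against Rc3h1 and Cnot1 thus lean on limma's smaller standard error.

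The genes differed in how much they varied between libraries. Zc3h12c had the widest spread, with an SD of 0.57 on the log2(TPM + 1) scale, and was the only one of the 10 above 0.5, where 1.66% of detected nuclear protein-coding genes were. Khsrp had the smallest at 0.13. The median SD of the 10 genes was 0.29, against 0.16 over the detected genes. With rescaled TPM the median was 0.18, against 0.13, and the gene above 0.5 was Tia1 at 0.53, with Zc3h12c at 0.49. Above 0.5 on that scale were 1.44% of detected genes. In the read-based table none of the 10 exceeded 0.5, where 0.999% of detected genes did. Zc3h12c had 0.50 there when rounded to 2 decimals.

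By deposited and by rescaled TPM, Zfp36, Zc3h12a, Zc3h12c, Rc3h1 and Elavl1, and most mRNAs listed as known targets, were lowest in replicate 3. The other 5 of the 10 genes were lowest in replicate 2. Elavl1 differed little between replicates 2 and 3, with 62.1 and 60.6 rescaled TPM. Rescaled TPM of Zfp36 was 1419, 1531 and 1068 in replicates 1, 2 and 3, so that replicate 3 stood at 72.4% of the mean of the other 2. Rescaled TPM of Zc3h12c was 46.5, 37.8 and 23.4, with replicate 3 at 55.5%, lower than in all but 0.527% of detected genes. Zc3h12a stood at 83.8%. Over the detected genes the median was 104%, and over the 10 genes it was 97.1%. By deposited TPM 5 of the 10 genes were lowest in replicate 3, where 41.9% of detected genes were, and by rescaled TPM 5 were, where 24.0% were. In the read-based table, rescaled in the same way, 4 were, where 1908 of 9100 detected genes were. Zc3h12a had 86.7, 63.3 and 70.4 there and was lowest in replicate 2.

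Of 17 mRNAs listed as known targets of these proteins 15 were detected. Of the 15, 13 were lowest in replicate 3 by deposited and by rescaled TPM, where 41.9% and 24.0% of detected genes were. By read-based rescaled TPM 12 were, where 1908 of 9100 detected genes were. Tnf, the cytokine whose mRNA is the best known target of Zfp36, had 2566, 2592 and 1339 rescaled TPM in replicates 1, 2 and 3. Ccl3, a chemokine, had 1648, 1585 and 953, and Ccl2, another chemokine, had 751, 878 and 568. The median of the 15 stood at 59.0% in replicate 3, below Zfp36 at 72.4% and close to Zc3h12c. Tfrc, the transferrin receptor and a target of the Zc3h12a nuclease, stood at 132%, and Il12b at 123%; these are the 2 exceptions. Csf2 and Il23a were under 1 TPM in all 3 libraries, with at most 0.36 and 0.12 TPM. In bulk RNA fewer cells of a kind and less RNA per cell cannot be told apart. What makes replicate 3 differ was not tested, and no label sets this library apart from the other 2.

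**Figure D3:**
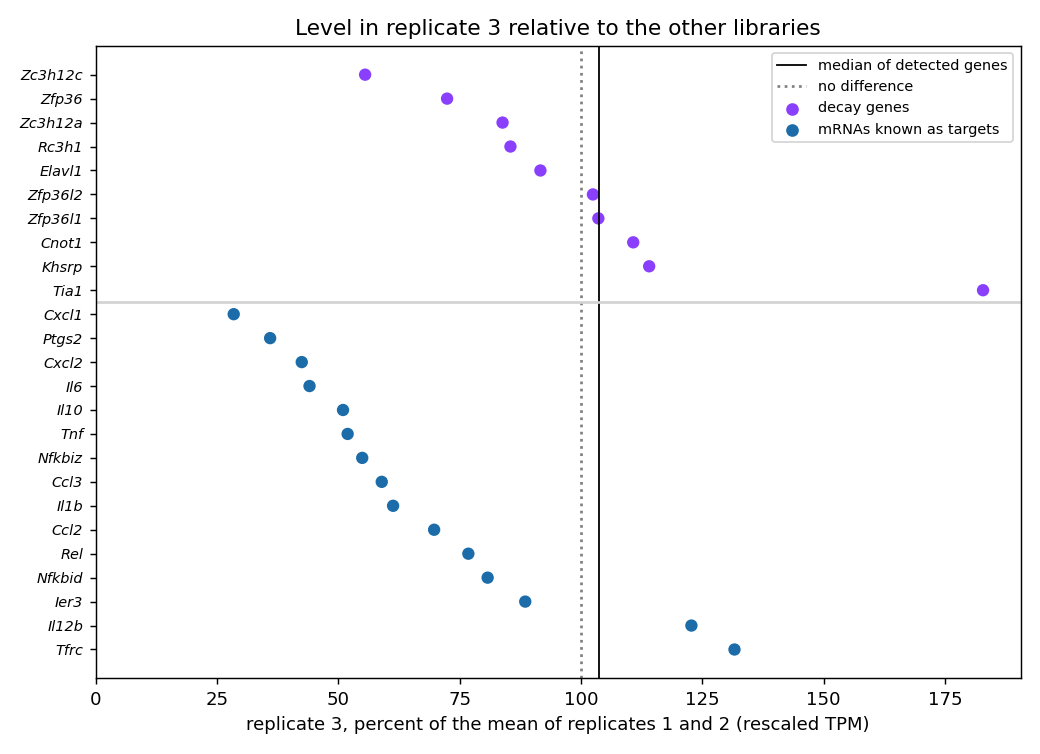
Rescaled TPM in replicate 3 as a percent of the mean of replicates 1 and 2; each point is 1 gene, with the 10 decay genes above the grey line and the 15 detected target mRNAs below it. The black line is the median of the detected nuclear protein-coding genes at 104%. All of the 10 decay genes but Tia1, at 183%, lie within the range of the target mRNAs, 28.4% to 132%. Zc3h12c and Zfp36 are the lowest of the 10.

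Tia1 ran the other way, with 12.9, 9.23 and 20.2 rescaled TPM in replicates 1, 2 and 3 and replicate 3 at 183% of the mean of the other 2, a percent above that of 99.8% of detected genes. Its annotation holds 28 transcripts, of which 5 are protein-coding. The protein-coding ones summed to 2.16, 1.84 and 2.15 TPM in replicates 1, 2 and 3, a mean of 2.05 ± 0.182 TPM (SD, n = 3). The other 23 summed to 2.15, 0.750 and 3.44 TPM. By deposited TPM, where the gene stood at 162.5% in replicate 3, its change between libraries was therefore mostly in transcripts not annotated as protein-coding. These held 49.88%, 28.96% and 61.54% of its transcript TPM in replicates 1, 2 and 3, and some are annotated as nonsense-mediated decay. Its protein-coding transcripts had an SD of 0.09 on the log2(TPM + 1) scale, below that of the gene at 0.44. Their sums were not rescaled, so their part in the 183% was not tested. In the read-based table the protein-coding transcripts likewise had 0.848, 0.891 and 0.841 TPM and the others 1.44, 0.899 and 2.12 TPM.

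Transcripts annotated with a retained intron took their largest shares of TPM in Tia1 and Elavl1. In Tia1 they held 33.9%, 18.9% and 32.6% of the summed transcript TPM in replicates 1, 2 and 3. In Elavl1 they held 23.4%, 17.7% and 22.2%, and in Cnot1 6.37%, 2.88% and 8.08%. Most of the Elavl1 share was Elavl1-203, a model of 613 bases, with a mean of 20.3% by TPM. By expected counts, which are not divided by length, Elavl1-203 held a mean of 3.76%. Elavl1-202, the other such transcript, held 1.68% by counts. In Zc3h12a the share was 7.16%, 0 and 6.53%, but 19.1%, 6.76% and 24.6% in the read-based table, where Cnot1 had 9.44%, 4.26% and 12.6%. By expected counts Zc3h12a-202, its transcript of this kind, held a mean of 0.839%. In Khsrp the share of TPM stayed at or under 1.37%, and in Rc3h1 at or under 1.53%. The share was lowest in replicate 2 for 5 of the 6 genes with such transcripts, Rc3h1 being the exception, and so it was for 75.8% of 5712 nuclear protein-coding genes. Over those genes the median share was 4.74%, 1.74% and 5.99% in replicates 1, 2 and 3, the same order as Malat1 and Neat1. A part of nuclear RNA in the cytosolic fraction as the source was not tested.

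The transcript that led each gene was protein-coding in all 10. It held over 50% of the gene's transcript TPM in all 3 libraries in 7 of 10 genes, by the transcript table made from the alignments. No share over all genes is given beside these counts, so they describe the 10 genes only. Zfp36l2 has 1 annotated transcript. Zfp36l1-201 held 99.9% ± 0.148 (SD, n = 3), Zc3h12c-202 99.7% ± 0.535, Rc3h1-202 98.3% ± 1.76, Khsrp-201 96.8% ± 0.682, Zc3h12a-201 95.4% ± 3.97 and Elavl1-204 68.6% ± 4.90. The exceptions were Zfp36-201 with 54.9% ± 5.76, Cnot1-202 with 52.2% ± 4.90 and Tia1-202 with 28.9% ± 10.8. In the table made from the reads without an alignment file, Zc3h12c-202 held 77.2% ± 9.38, Rc3h1-202 71.6% ± 2.48 and Cnot1-202 33.0% ± 4.55, so these shares depended on the quantifier. In that table Rc3h1-201, whose 3′ UTR is 20 bases against 7181 in Rc3h1-202, held 27.3% ± 2.78. Tia1-202 held 9.68% ± 3.77 there and Tia1-201 26.3% ± 7.85, so the leading coding transcript of Tia1 changed between the tables. By the alignments too Tia1-201 was ahead in replicate 1, with 25.3% against 23.0% for Tia1-202.

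**Figure D4:**
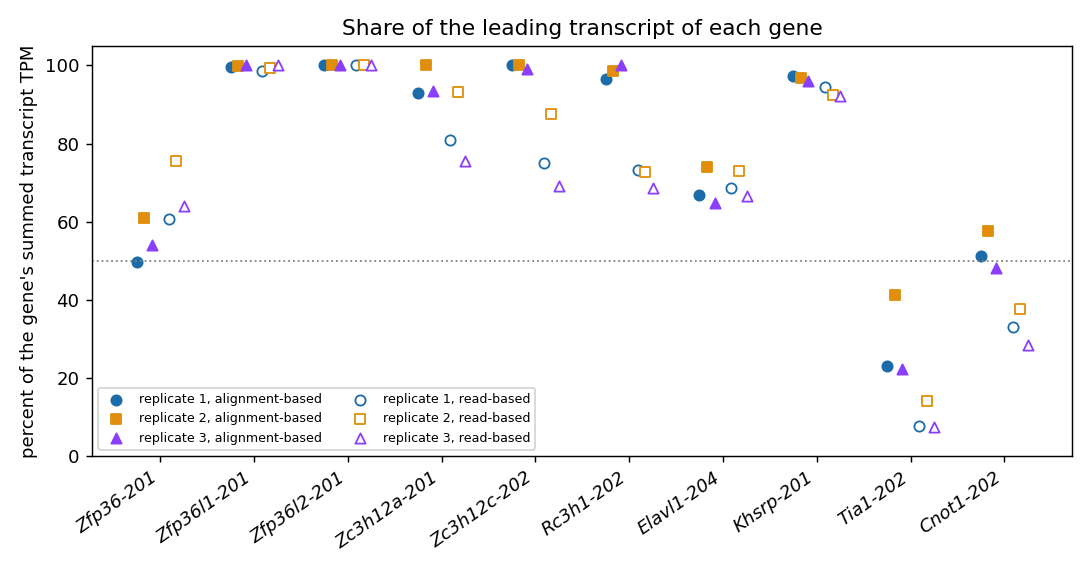
Percent of a gene's summed transcript TPM held by its leading transcript; filled symbols are from the alignment-based table, open symbols from the read-based table, with 1 symbol per library, and the dotted line marks 50%. The 2 tables lie close for Elavl1-204 and Khsrp-201 and apart for Zc3h12c-202, Rc3h1-202, Tia1-202 and Cnot1-202.

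Zfp36 has 2 annotated transcripts, which differ by whether its intron is spliced out. Zfp36-201 has 2 exons and lacks the 680 bases of the intron at chromosome 7, 28378494 to 28379173. Zfp36-202 is 1 exon of 2465 bases that runs through that intron. Zfp36-201 had 234, 262 and 160 TPM in replicates 1, 2 and 3, and Zfp36-202 had 239, 167 and 136 TPM. The unspliced form thus held 50.4%, 39.0% and 46.0% of Zfp36, lowest in replicate 2, and 39.3%, 24.5% and 36.1% in the read-based table. Annotated Zfp36-201 also starts 1025 bases upstream of the RefSeq start of the gene (GRCm38.p6), and Zfp36-202 27 bases upstream. The part of this difference between the models in the split of TPM was not tested.

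For Elavl1 the coding transcripts differ in the 3′ UTR and in the annotated 5′ end, at 4312619 in Elavl1-204 and 4325413 in Elavl1-201. The part of the 5′ difference in the split of TPM was not tested. Elavl1-204, with a 3′ UTR of 1257 bases, had 15.6, 12.9 and 10.9 TPM in replicates 1, 2 and 3. Elavl1-201, whose 3′ UTR is 4218 bases, had 2.29, 1.42 and 2.18 TPM. The shorter form led in every library by both tables, with 69.4% ± 3.33 in the read-based one against 7.26% ± 1.79 for the longer form. By expected counts, which are not divided by length, the longer form held 26.7% of the gene.

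The AU-rich pentamer ATTTA, written in DNA letters and searched on the mRNA strand with overlaps counted, was found in the 3′ UTR of the leading coding transcript of all 10 genes, and in 65.7% of 9061 detected genes with an annotated 3′ UTR. The heptamer TATTTAT, which contains it, was in 6 of 10, against 26.7%. The nonamer TTATTTATT, which contains both and is the form that Zfp36 binds most tightly, was in 4 of 10, against 6.73%. The 4 are Zfp36, Zfp36l1, Zfp36l2 and Rc3h1, so all 3 Zfp36 paralogs carry the letters that their own proteins are known to bind. The 3′ UTRs of the 10 genes had a median of 1732 bases, against 916 bases over the detected genes, and longer ones hold more matches. Per 1000 bases the 10 genes together had 2.86 pentamers, against 1.85 over the detected genes and 5.79 over the 17 target mRNAs.

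The 30-base windows below hold the most pentamers in each 3′ UTR, with ATTTA in capitals. They are shown to set the paralogs beside their best known target and to show what the longer Elavl1 form adds. Sequences are from annotation M21 and positions are those of mm10, read on the gene's strand.
Zfp36 (chr7:28376958-28376987, minus strand): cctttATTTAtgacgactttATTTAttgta
Zfp36l1 (chr12:80108431-80108460, minus strand): cttATTTAacttatcaaaacgtATTTAttg
Zfp36l2 (chr17:84184918-84184947, minus strand): gaaaaactATTTAacttATTTAttatcttg
Elavl1-204 (chr8:4289185-4289214, minus strand): ctccacagactggATTTAaaacaaaacaaa
Elavl1-201 (chr8:4285777-4285806, minus strand): ttATTTATTTATTTATTTAtttttATTTAt
Tnf (chr17:35199678-35199707, minus strand): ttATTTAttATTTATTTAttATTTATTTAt
Cxcl2 (chr5:90905327-90905356, plus strand): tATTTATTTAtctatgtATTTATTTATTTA

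The Zfp36 family windows hold 2 separate pentamers each, whereas those of Tnf, Cxcl2 and the longer Elavl1 form hold 5, mostly run together. Over the whole 3′ UTR Zfp36 has 3 pentamers, Zfp36l1 9 and Zfp36l2 5, and Tnf has 8. The shorter, leading Elavl1 form has 3 pentamers and no nonamer, while Elavl1-201 has 17 pentamers and 8 nonamers. The transcript model that carries the AU-rich cluster thus had the lower TPM in all 3 libraries. Khsrp and Cnot1 have 1 pentamer each. A match to these letters is a description of the annotated transcript and not a measured binding site.

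**Figure D5:**
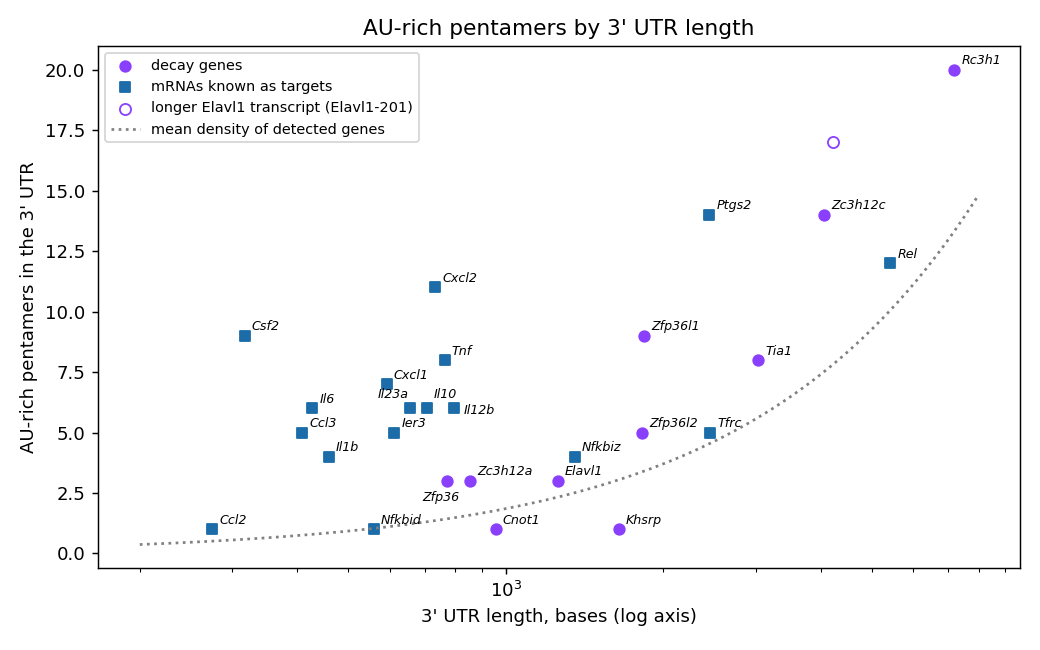
Number of ATTTA pentamers against the length of the 3′ UTR in bases (log axis) for the leading coding transcript of each gene; the open circle is the longer Elavl1 form and the dotted curve is the mean density of detected genes. Khsrp and Cnot1 lie below the curve, and most cytokine and chemokine mRNAs lie well above it at short lengths.

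The partners of the 10 genes were widely expressed. All 14 subunits and adaptors of CCR4-NOT other than Cnot1 were detected, with a median of 3.57 on the log2(TPM + 1) scale, close to the 3.26 of detected genes. They were led by the adaptors Btg2 at 44.5 ± 12.8 TPM and Btg1 at 32.7 ± 9.91 TPM (SD, n = 3) and by the deadenylase Cnot6l at 15.6 ± 2.06 TPM. Of the other deadenylase genes Pan3 had 20.3 ± 5.19 TPM and Parn 3.43 ± 0.0321 TPM. Pan2, the catalytic partner of Pan3, had 1.56, 0.870 and 1.36 TPM and was the one not at 1 TPM in all 3 libraries.

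All 16 genes of decapping and decay from the 5′ end were detected, with a median of 3.11 (log2), led by the helicase Ddx6 at 34.5 ± 5.51 TPM, the decapping enzyme Dcp2 at 16.5 ± 2.71 TPM and Lsm4 at 14.5 ± 0.423 TPM. Of 15 genes of the exosome and its helpers 14 were detected, with a median of 2.76, led by Exosc10 at 12.0 ± 0.343 TPM, Wdr61 at 11.4 ± 0.820 TPM and Exosc9 at 10.1 ± 0.893 TPM. Exosc6 is listed at 0 in all 3 libraries. Of the 12 relatives of the 10 genes 8 were detected, with a median of 3.50. Hnrnpd (AUF1), which binds AU-rich elements, led at 40.1 ± 1.54 TPM, before Fubp1 at 18.7 ± 0.942 TPM, a relative of Khsrp, and N4bp1 at 18.0 ± 3.73 TPM. Zc3h12b and the neuronal genes Elavl2, Elavl3 and Elavl4 were at or under 0.08 TPM in every library.

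All 10 genes for enzymes and binding proteins that modify these factors were detected, with a median of 4.69 (log2). The phosphoprotein-binding Ywhaz led at 95.2 ± 17.3 TPM, followed by Mapkapk2 at 70.4 ± 15.8 TPM, the kinase known to phosphorylate Zfp36 and slow the decay it directs, and Ywhab at 47.1 ± 5.0 TPM. Malt1, the protease that cleaves Zc3h12a and Rc3h1 in T cells, had 51.2, 13.6 and 23.6 TPM in replicates 1, 2 and 3; it was picked out after its values were seen. Malt1 was lowest in replicate 2, as were Malat1 and Neat1. Unlike them, it stood much higher in replicate 1 than in replicate 3. A shared cause was not tested.

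Some nuclear protein-coding genes with a mean of 10 TPM or more followed the same course over the 3 libraries. The measure of likeness was the largest difference between centred log2(TPM + 1) values in any of the 3 libraries. Among the nearest to Zfp36 were Nfkbib, Slirp, Sowahc and 1810022K09Rik, with differences between 0.013 and 0.029, and 1.14% of 4129 genes lay within 0.1. Nearest to Zfp36l1 were Prrc2c, Trafd1, Bbx, Dennd1a and Pik3r1, and 14.7% lay within 0.1. Nearest to Zc3h12a were Tbc1d9, Snx10, Hbp1, Plekha1 and Ypel5, and 4.60% lay within 0.1. The course of Zfp36 was thus shared by fewer genes than those of the other 2, and 3 libraries allow many such likenesses.

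Some of these genes overlap others in the annotation, and whether reads were counted by strand is not given in the sources used here. Zfp36l1 overlaps the non-coding Gm26669 on the opposite strand, which had 2.06, 0.880 and 0.720 TPM in replicates 1, 2 and 3. Elavl1 overlaps Ccl25 on the opposite strand, at 3.46, 2.51 and 3.61 TPM. Zfp36 overlaps the antisense gene Gm44710 at no more than 0.44 TPM, and the other overlapping genes had at most 0.37 TPM. For Elavl1, whose level was between 16.8 and 23.4 TPM, the shared stretch leaves its reads open to assignment to Ccl25.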

How the data were processed

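Libraries of 1 µg RNA were aligned to mm10 with annotation M21, per the accompanying text files; the aligner, the quantifiers and their versions: not given in the sources used here. Each library had 3 tables. The deposited gene tables hold expected counts, TPM and FPKM (layout of RSEM, per the file headers). The authors' transcript tables hold estimated counts and TPM, from alignments or from reads alone (layout of kallisto). Rows naming no gene held 0.356%, 0.125% and 0.104% of counts in replicates 1, 2 and 3 and were left out. TPM depends on every abundant RNA, so rescaled TPM was also used.

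Ratios of 22 gene pairs were fitted on log2(TPM + 1), which understates ratios of low genes, with limma 3.58.1 (R 4.3.3; intercept only, trend, two-sided) over all nuclear protein-coding genes with a mean of 0.1 TPM or more, and adjusted over those 11473 genes. Some of the pairs were taken as neighbours in the order of mean TPM of these same libraries. The prior degrees of freedom were infinite, so a ratio's SD, not limma's SE, is printed. The fitted ratios were checked on simulated data for their size, with no condition set on the p-values. edgeR 4.0.16 (TMM) and DESeq2 1.42.0 on expected counts gave alternatives for the spread. Genes were named by rule: the 10 genes and pair genes, the 3 highest of each list and those under 1 TPM in all 3 libraries, and the 5 nearest by likeness, of which 1 is not reported here; Tfrc, Il12b, Cxcl2, Pan2, Malt1, Malat1, Neat1 and overlapping genes were added after their values were seen. The members and lists were chosen with earlier results of these data known. Figures were drawn with matplotlib 3.10.9.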

Additional observations from a re-analysis of the deposited data

How the results depend on the processing

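All 10 genes were detected under each alternative run: thresholds of 0.5 and 2 TPM, rescaled TPM, both transcript tables, and each library left out. Of the 22 pairs 15 were called under pseudocount, FPKM, rescaling, read-based TPM, filter and limma alternatives, and between 13 and 16 with a library left out; calls that changed stand beside their pairs. The count of genes with an SD above 0.5, which was 1, was also 1 with TMM, DESeq2 size factors and rescaled TPM. Of detected genes 1.26%, 1.69% and 1.44% were above 0.5 there. The gene was Zc3h12c with TMM and DESeq2 size factors, as by deposited TPM, but Tia1 with rescaled TPM. In the read-based table the count was 0, where 0.999% of detected genes were above 0.5. Above 0.3 it was 5, where 11.1% of detected genes were, and above 0.7 it was 0, where 0.41% were. The leading transcript held over 50% in 8 genes by the read-based table, 9 by expected counts, and between 7 and 8 with a library left out. Choices added after the data were seen were those on Zfp36-202 (33.3% read-based, against 45.1%), the family share, retained introns, replicate 3 and robust limma. No paired analysis was possible because all libraries belong to 1 group. Depth limits Tia1 most, with 594, 656 and 892 expected counts in replicates 1, 2 and 3, and 3 libraries limit every spread.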
